A study of Saccharomyces cerevisiae with 4 samples.

Results

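The genes described here are 10 of the 6256 genes with a probe on a Saccharomyces cerevisiae oligonucleotide array, chosen by their systematic names. They comprise 5 regulators of the response to heme and oxygen, HAP1 (YLR256W), HAP4 (YKL109W), ROX1 (YPR065W), MOT3 (YMR070W) and UPC2 (YDR213W), and 5 genes under such control, HEM1 (YDR232W), HEM13 (YDR044W), ANB1 (YJR047C), AAC3 (YBR085W) and OLE1 (YGL055W). Each was read by 1 probe printed in 7 spots. The study set D10 Small, a translocant strain, against WT San I, the parent it came from, on 4 two-colour arrays of 1 slide. Cy3 marked the RNA of D10 Small, with a biological replicate of its own on each array, and Cy5 marked 1 pool of WT San I RNA used on all of them. Cultures of either strain reached an optical density of about 0.4 to 0.5 in YPD, which is rich in glucose, and D10 Small alone was given kanamycin, an aminoglycoside antibiotic, at 200 mkg/ml. Strain, drug and dye therefore changed together and cannot be told apart. The pool is 1 control sample, so the spread of the parental strain enters no test, and no source used here gives the number of cultures in it. Every ratio is D10 Small over the WT San I pool in log2 units, and means carry the SD of the 4 arrays.

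Yeast senses oxygen largely through heme and sterols, whose synthesis consumes oxygen. When heme is plentiful, the zinc cluster factor Hap1 activates genes of respiration and ROX1, and Rox1, helped by Mot3 and the corepressor Cyc8-Tup1, keeps hypoxic genes silent. Hap4 is the activating subunit that makes the CCAAT-binding complex of Hap2, Hap3 and Hap5 switch on respiratory genes when glucose runs low. Upc2 activates sterol synthesis and uptake genes when sterols fall short.

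D10 Small had more transcript of AAC3, the hypoxic form of the mitochondrial ADP/ATP carrier, and of the respiratory activator HAP4, both by more than 2-fold. HAP1, ROX1, HEM1 and ANB1 were modestly higher, OLE1 and HEM13 were modestly lower, and MOT3 and UPC2 were lower by about 1.11-fold each. By limma with Benjamini-Hochberg adjustment over 5794 tested genes at 0.05, 6 of the 10 genes passed as higher and 4 as lower. The same test called 82.7% of all tested genes, 43.2% higher and 39.6% lower, so passing it does not set these genes apart. At least 2-fold, 2 of the 10 were higher and 0 lower, against 6.2% and 3.05% of all tested genes. Against a minimum fold of 1.2, a stricter limma test chosen after the data were seen, 5 of the 10 remained higher and 2 lower, against 24.6% and 19.9% of all tested genes. MOT3, UPC2 and HEM1 no longer passed there.

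Ordered by ratio, the 10 genes fell into 4 groups that did not overlap on the arrays. AAC3 and HAP4 came first, then HAP1, ROX1, ANB1 and HEM1, then MOT3 and UPC2, and last HEM13 and OLE1. Within each group, neighbours in the order overlapped. These groups hold for this processing and not for every other. With no background correction, median centring, the authors' table or the scanner's net ratio, AAC3 lay above HAP4 and no longer overlapped it. In the authors' table AAC3 ran from 1.71 to 1.81 and HAP4 from 1.21 to 1.38. With no background correction ANB1, from 0.58 to 0.81, lay above HAP1, ROX1 and HEM1 and no longer overlapped them. The same held in the authors' table, where ANB1 ran from 0.66 to 0.92. In the scanner's net ratio ANB1, from 0.80 to 1.76, overlapped HAP4, and UPC2 overlapped HEM13. With median centring UPC2, from -0.09 to 0.09, overlapped HEM13, and HEM13 and OLE1 no longer overlapped. There HEM1, from -0.001 to 0.24, overlapped both MOT3 and UPC2. As processed here, each of the 10 genes had 1 sign on all 4 arrays, as had 45.4% of all tested genes on the higher and 41.4% on the lower side.

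**Figure D1:**
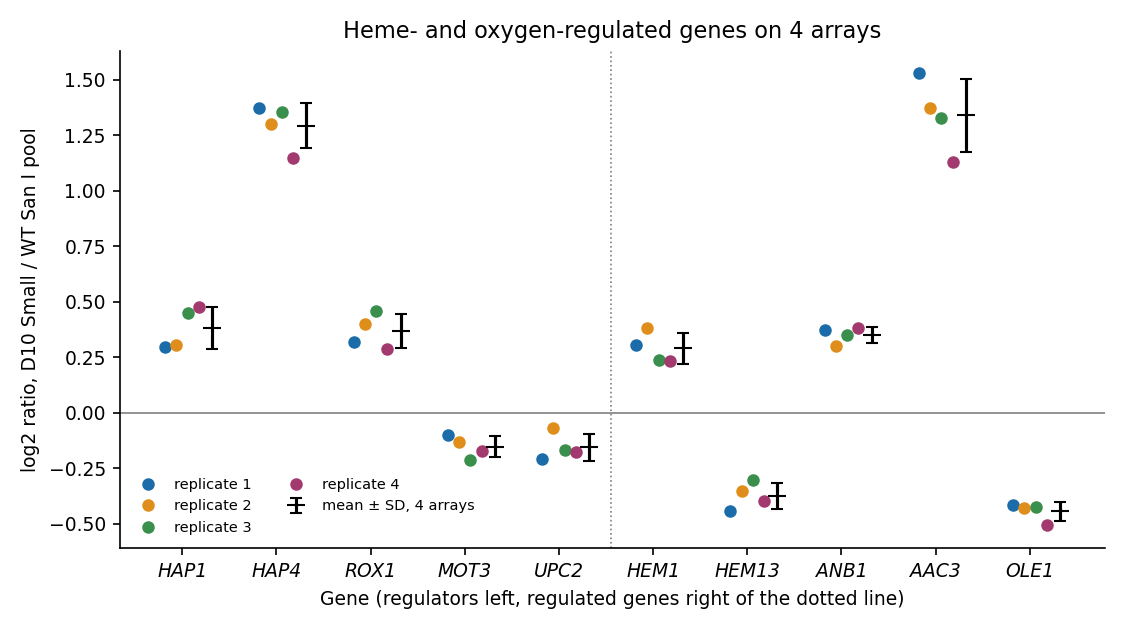
Log2 ratio of D10 Small over the WT San I pool for the 10 genes, with 1 point per array and the mean ± SD of 4 arrays in black. AAC3 and HAP4 lie above 1 on every array, and MOT3, UPC2, HEM13 and OLE1 lie below 0 on every array.

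The arrays limit what these ratios can show. Over gene spots, median raw intensity ran from 304 to 444 for D10 Small and from 120.4 to 261 for the pool, and replicate 4 was the dimmest in both channels. Across genes, which are not independent replicates, any pair of arrays had a Pearson's r of 0.975 to 0.990, and with 4 of them the precision is limited by their number. All 10 genes were above background in both channels on all 4 arrays. The SD of the 10 genes over arrays ran from 0.04 to 0.16, against a median of 0.07 for all tested genes.

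**Figure D2:**
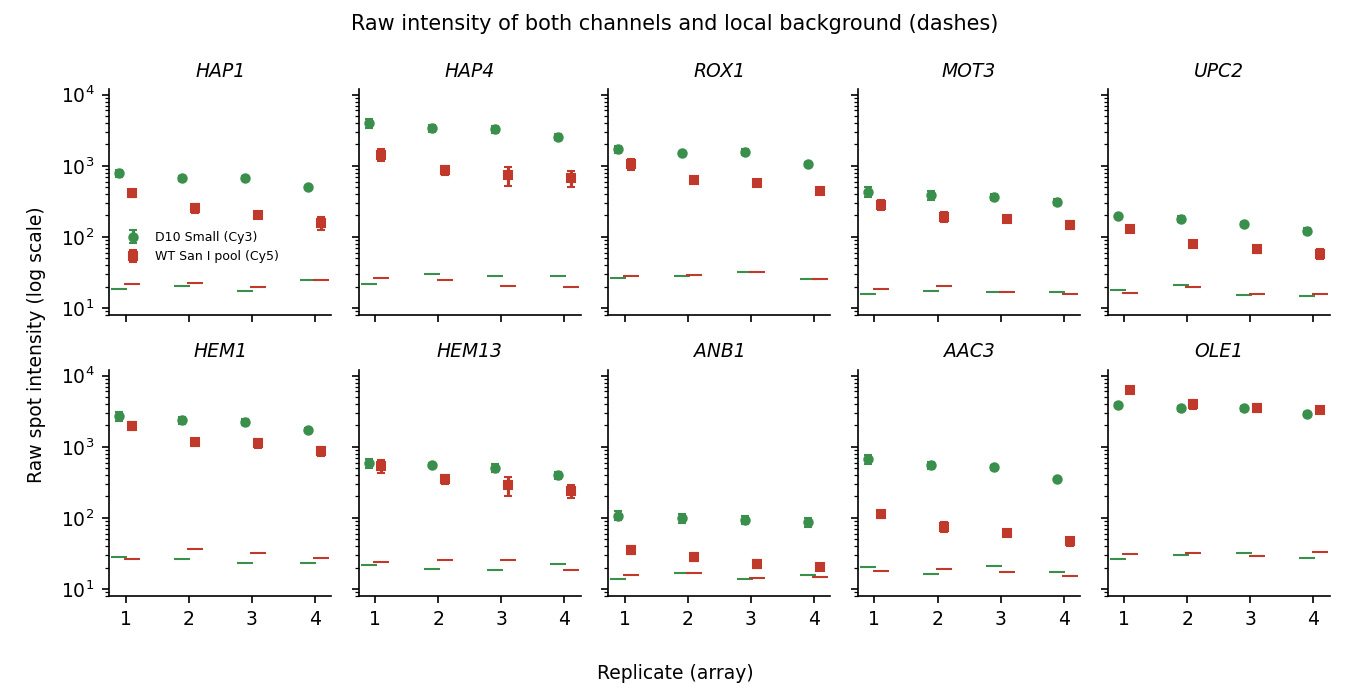
Raw spot intensity on a log axis for D10 Small (circles) and the WT San I pool (squares), as mean ± SD over the spots of a probe, by replicate, with local background as dashes. The pool's signal for ANB1 falls from 35.6 to 20.3, close to its background, while OLE1 reads at least 2931 in both channels.

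HAP4 was the regulator that differed most. Its raw intensity in D10 Small was 3991 on replicate 1, 3358 on replicate 2, 3258 on replicate 3 and 2517 on replicate 4, and the pool read 1432, 876, 744 and 671 on the same arrays. The normalised ratios were 1.37, 1.30, 1.36 and 1.15. D10 Small was brighter on every array, as it was in the median over gene spots, and replicate 4 gave the smallest ratio. The mean of 1.29 ± 0.10 (SD, n = 4), a 2.45-fold difference, had a limma adjusted p of 9.87e-08, and the ratio stood at the 96.5th percentile of all tested genes.

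HAP1 and ROX1, an activator and the repressor gene it controls, were higher by similar amounts. HAP1 had ratios of 0.29, 0.31, 0.45 and 0.48 on replicates 1 to 4, with a mean of 0.38 ± 0.10 (1.30-fold, limma adjusted p 5.21e-05). ROX1 had 0.32, 0.40, 0.46 and 0.29, with a mean of 0.37 ± 0.08 (1.29-fold, limma adjusted p 3.60e-05). The ratios of both genes were positive on all arrays and overlapped each other. On replicate 4 the 6 HAP1 spots kept had an SD of 0.30 on the log2 scale, against 0.10 to 0.15 on the other arrays.

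MOT3, which encodes a zinc finger repressor that acts with Rox1, and UPC2 differed little. MOT3 had ratios of -0.10, -0.13, -0.21 and -0.17 (mean -0.15 ± 0.05, limma adjusted p 0.00260). UPC2 had -0.21, -0.07, -0.17 and -0.18 (mean -0.15 ± 0.06, limma adjusted p 0.00331). Before normalisation both genes were brighter in D10 Small on every array, so their lower ratios rest on the normalisation. Neither passed with arrays centred on their median in place of loess, where MOT3 had 0.094 with a limma adjusted p of 0.0734 and UPC2 had -0.01 with 0.888. Both passed as lower in the authors' table, with -0.19 for MOT3 and -0.23 for UPC2, and in the scanner's net ratio, with -0.27 and -0.43.

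HEM1 encodes 5-aminolevulinate synthase, the first enzyme of heme synthesis, and its transcript was slightly higher. The ratios were 0.31, 0.38, 0.24 and 0.23 on replicates 1 to 4, a mean of 0.29 ± 0.07 (1.22-fold, limma adjusted p 0.000119). HEM13 encodes coproporphyrinogen oxidase, an oxygen-requiring step of the same pathway that Rox1 represses, and it was lower. Its ratios were -0.44, -0.35, -0.30 and -0.40, a mean of -0.37 ± 0.06 (1.30-fold lower, limma adjusted p 1.86e-05). In raw intensity HEM13 read 592, 555, 511 and 400 in D10 Small and 539, 352, 290 and 238 in the pool. Its lower ratio thus rests on the normalisation. The ranges of HEM1 and HEM13 lay on opposite sides of 0.

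The other heme synthesis genes also went both ways. Of the 8 genes of the pathway, 3 passed as higher and 4 as lower, and the list median of -0.06 lay near the 0.02 of all tested genes. HEM3, for porphobilinogen deaminase, had the highest ratio with 0.54 ± 0.02, and HEM14, for protoporphyrinogen oxidase, had 0.37 ± 0.08. HEM12, for uroporphyrinogen decarboxylase, was lower with -0.30 ± 0.04, or -0.05 with median centring, where it did not pass. HEM4 and the ferrochelatase gene HEM15 had -0.13 and -0.21, and HEM2 (0.01, limma adjusted p 0.793) did not pass. With median centring 2 genes of the pathway were lower in place of 4.

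Among 8 genes that use, attach, move or degrade heme, 7 passed as higher and 1 as lower, against 43.2% and 39.6% of all tested genes, and their median was 0.40. CYT2, which attaches heme to cytochrome c1, led with ratios of 1.80, 1.62, 1.49 and 1.41 (mean 1.58 ± 0.17, limma adjusted p 1.73e-07). CYC3, which attaches heme to cytochrome c, had 0.90 ± 0.09, and the heme oxygenase HMX1, which breaks heme down, had 1.03 ± 0.07. COX15, which helps make heme A for cytochrome oxidase, was the lower gene with -1.0 ± 0.08. At least 2-fold, 2 of these genes were higher and 1 was lower, against 6.2% and 3.05% of all tested genes. Both heme lyase genes and HMX1 lay above 0.78 on every array, while COX15 lay below -0.91 on every array. CYC3 lies on the left arm of chromosome I, and the part of that arm in its ratio was not tested.

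ANB1 and AAC3 are hypoxic genes that Rox1 silences in air, and both were higher in D10 Small. AAC3 read 667, 554, 514 and 350.2 in raw intensity in D10 Small on replicates 1 to 4, and 114, 75.7, 62.2 and 46.7 in the pool. The ratios were 1.53, 1.37, 1.33 and 1.13. D10 Small exceeded the pool on every array, as it did in the median over gene spots. The smallest ratio was on replicate 4, the dimmest array. The mean of 1.34 ± 0.16 was a 2.53-fold difference with a limma adjusted p of 3.40e-07, at the 96.7th percentile of all tested genes. The SD of AAC3 lay at the 94.2th percentile of all tested genes. Size, spread and the order of the arrays depend on the processing. In the authors' table the ratios were 1.76, 1.77, 1.81 and 1.71 (mean 1.76 ± 0.04). The scanner's net ratios were 1.80, 1.90, 1.95 and 1.87 (mean 1.88 ± 0.07), with the smallest on replicate 1.

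ANB1, the hypoxic isoform of a translation factor, was dim in the pool. Its raw intensity was 108, 98.5, 94.8 and 87.5 in D10 Small and 35.6, 28.4, 22.5 and 20.3 in the pool, where local background lay between 14.5 and 17.0. The pool was above background on all 4 arrays, on replicate 4 with 6 of 7 spots. The ratios of 0.37, 0.30, 0.35 and 0.38 had a mean of 0.35 ± 0.04 (1.28-fold, limma adjusted p 1.46e-05). An offset of 50 added to both channels draws the ratios of so dim a gene toward 0. The ratio was 0.70 ± 0.10 with no background correction, 0.75 ± 0.12 in the authors' table and 1.19 ± 0.46 in the scanner's net ratio. D10 Small was higher in each case, and the size of the difference is not settled by these arrays.

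Of 9 genes that Rox1 is known to repress, 6 passed as higher and 2 as lower, against 43.2% and 39.6% of all tested genes, and their median was 0.35. They include HEM13, ANB1, AAC3 and OLE1. Of the other 5, 4 were higher and 0 lower. AAC3 and the hypoxic cytochrome c gene CYC7 (1.06 ± 0.08, limma adjusted p 1.21e-07) were the members of this list past 2-fold. SUT1, a sterol uptake regulator, had 0.44 ± 0.08, or 0.69 with no background correction, 0.75 in the authors' table and 0.94 in the net ratio, and the iron transporter gene FET4 had 0.38 ± 0.12. COX5B, the hypoxic subunit of cytochrome oxidase, had 0.22 ± 0.09, or 0.46 with median centring, and HMG2, for an isoenzyme of sterol synthesis, had 0.05 ± 0.10 and did not pass (limma adjusted p 0.353). HEM13 and OLE1 were the lower genes of the list.

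OLE1 encodes the only fatty acid desaturase of this yeast, an oxygen-dependent enzyme. Its raw intensity was 3884, 3466, 3492 and 2931 in D10 Small and 6311, 3969, 3538 and 3256 in the pool. The ratios were -0.41, -0.43, -0.42 and -0.51, a mean of -0.44 ± 0.04 (1.36-fold lower, limma adjusted p 4.39e-06). The pool was brighter before normalisation as well, by little on replicate 3, while over all genes its channel was the dimmer. Raw intensities of so bright a probe do not give the direction by themselves. The bright carrier gene PET9 read 10234 in the pool and 8735 in D10 Small on replicate 1, with a normalised ratio of 0.39. On replicates 2 to 4 PET9 was brighter in D10 Small. OLE1 was brighter in the pool's channel than 97.5% of the probes. With median centring its ratio was -0.96 ± 0.11.

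OLE1 was not alone among fatty acid genes. Among 10 genes listed under fatty acid synthesis, elongation and activation, 9 passed as lower and 0 as higher. The shares of all tested genes were 39.6% and 43.2%, and the list median was -0.33. The 9 include UBX2 (-0.22 ± 0.05), which does not encode an enzyme of these steps. With median centring 6 were lower and 0 higher. The acetyl-CoA carboxylase gene ACC1 had -0.93 ± 0.12, and the fatty acid synthase genes FAS2 and FAS1 had -0.82 ± 0.06 and -0.74 ± 0.10. With median centring ACC1 had -1.41, FAS2 -1.38 and FAS1 -1.39. ELO2, for a fatty acid elongase, had -1.39 ± 0.07. ELO2 lies on the right arm of chromosome III, where the median ratio of 96 tested genes was -0.31, and the part of the arm in its ratio was not tested. FAA4 (0.01 ± 0.09, limma adjusted p 0.901) did not pass. Against a minimum fold of 1.2, 5 of the 10 genes were lower, against 19.9% of all tested genes. The membrane-bound activators of OLE1 differed in sign, with SPT23 at 0.21 ± 0.06 and MGA2 at -0.33 ± 0.02.

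**Figure D3:**
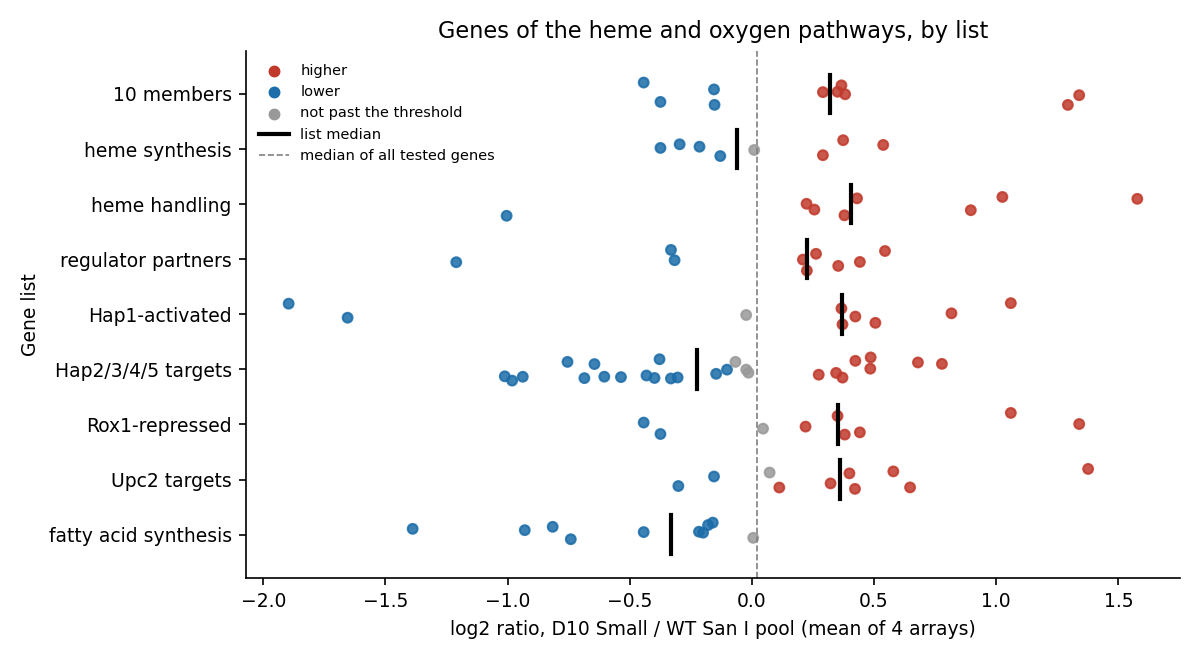
Log2 ratios (mean of 4 arrays) of the 10 genes and of related lists, coloured by whether the gene passed limma's adjusted p of 0.05 and in which direction, with list medians as bars and the median of all tested genes as a dashed line. Fatty acid synthesis holds no higher gene, heme handling holds 1 lower gene, and the targets of the Hap2/3/4/5 complex lie on both sides of 0.

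Partners of the regulators did not move as a block. Among 9 partner genes, 6 passed as higher and 3 as lower, against 43.2% and 39.6% of all tested genes, and their median was 0.23. The subunits of the CCAAT-binding complex split, with HAP5 at 0.55 ± 0.11, HAP3 at 0.26 ± 0.09 and HAP2 at -0.32 ± 0.06. TUP1, of the Cyc8-Tup1 corepressor, had ratios of -1.33, -1.26, -1.17 and -1.07, a mean of -1.21 ± 0.11 (2.31-fold lower, limma adjusted p 1.57e-07). CYC8, its partner, was higher with 0.35 ± 0.04. TUP1 was lower on every array by more than 2-fold. It lies on the right arm of chromosome III, as does ELO2, and the part of that arm in its ratio was not tested. Against a minimum fold of 1.2, 3 partners were higher and 1 was lower, against 24.6% and 19.9% of all tested genes.

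Genes that the CCAAT-binding complex is known to activate went both ways, while HAP4 itself was higher. Of 26 such genes, 8 passed as higher, 15 as lower and 3 did not pass, against 43.2% and 39.6% of all tested genes, and the median was -0.22. Split by complex, a division made after the values were seen, all 4 succinate dehydrogenase genes were higher, from 0.27 for SDH4 to 0.78 for SDH1. Of 7 cytochrome oxidase genes 6 were lower, of 8 cytochrome bc1 genes 5 were lower and 1 higher, and of 3 ATP synthase genes 2 were lower. QCR8, of the bc1 complex, had -1.01 ± 0.10, and the ATP synthase genes ATP5 and ATP2 had -0.98 ± 0.12 and -0.94 ± 0.05. The mitochondrial genome encodes other subunits of these complexes. Of its 8 probed genes 6 were tested, all through the pool's signal alone, since D10 Small was not above background for them on any array. OLI1 was at least 125-fold lower and COB at least 4.14-fold lower. COX1, ATP6, COX3 and ATP8 were at least 1.67, 1.36, 1.25 and 1.12-fold lower. The pool's normalised log2 signal for them, 5.99 to 6.51, was dimmer than for COB (7.80) and OLI1 (12.72). Their smaller bounds therefore do not show smaller differences. COX1 had -0.82 here, -2.07 with no background correction, -2.16 in the authors' table and -6.20 in the scanner's net ratio. In that net ratio ATP6 did not pass (limma adjusted p 0.0720). The part of these differences in the ratios of HAP4 and its targets was not tested.

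Among 9 genes that Hap1 is known to activate, 6 passed as higher and 2 as lower, against 43.2% and 39.6% of all tested genes, and their median was 0.37. The lower genes were CTT1, for a catalase, and YHB1, for a flavohemoglobin. CTT1 had ratios of -2.08, -1.95, -2.04 and -1.51 (mean -1.90 ± 0.26), and YHB1 had -1.87, -1.60, -1.63 and -1.52 (mean -1.65 ± 0.15), with limma adjusted p of 4.34e-07 and 1.02e-07. Both lie on the right arm of chromosome VII, where the median ratio of 272 tested genes was -0.48, and the part of the arm in their ratios was not tested. The lactate dehydrogenase gene CYB2 had 0.82 ± 0.11, or 1.24 with no background correction, 1.37 in the authors' table and 1.59 in the scanner's net ratio. CYC1, for the main cytochrome c, had 0.37 ± 0.10. CYT1, for cytochrome c1, had -0.02 ± 0.11 and did not pass.

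Among 11 genes that Upc2 is known to activate, UPC2 included, 7 passed as higher, 2 as lower and 1 did not pass, against 43.2% and 39.6% of all tested genes, and their median was 0.36. ERG2, chosen for naming after its value was seen, passed narrowly with 0.11 ± 0.11 (limma adjusted p 0.0495), and 6 genes were higher under 6 of the other ways of processing and without replicate 4. DAN1, the other gene, was too dim to be tested. The sterol desaturase gene ERG3 led with ratios of 1.45, 1.38, 1.34 and 1.34 (mean 1.38 ± 0.05, limma adjusted p 2.54e-08). ERG11, the heme-containing sterol demethylase, had 0.65 ± 0.04, ERG25 had 0.58 ± 0.14, and the sterol importer gene AUS1 had 0.42 ± 0.09. AUS1 had 0.72 with no background correction, 0.80 in the authors' table and 0.96 in the net ratio. With median centring 4 genes were higher in place of 7, ERG11 did not pass with 0.02, and ERG25 was lower with -0.11. ERG3 was above 1 on every array.

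Pairs of paralogues, of which 1 serves in air and 1 under low oxygen, were set against each other within arrays. The hypoxic gene had the higher ratio in 4 of 5 such pairs, on every array. ANB1 exceeded its aerobic paralogue HYP2 by 0.49 ± 0.15, with HYP2 at -0.14 ± 0.12, and AAC3 exceeded PET9, the main ADP/ATP carrier, by 0.88 ± 0.25, with PET9 at 0.46 ± 0.11. COX5B exceeded COX5A by 0.97 ± 0.08, with COX5A at -0.75 ± 0.06, and CYC7 exceeded CYC1 by 0.69 ± 0.10. The differences between COX5B and COX5A were 0.93, 1.0, 0.89 and 1.07 on replicates 1 to 4. HMG2 went the other way, 0.46 ± 0.12 below HMG1 in ratio, with differences of -0.41, -0.49, -0.61 and -0.33. With median centring that difference was -0.046 ± 0.14.

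UPC2 stood 0.38 ± 0.06 below its paralogue ECM22, which had 0.23 ± 0.04, also on every array. An exact two-sided sign-flip permutation test over 4 arrays cannot give a p below 1 in 8, which each of the 6 pairs gave, also after Benjamini-Hochberg adjustment over the 6, so no pair could pass 0.05. ANB1 and HYP2, like AAC3 and PET9, are similar in sequence and their probes may share signal. HYP2 and PET9 were bright in the pool, and with median centring PET9 had -0.34 and HYP2 -1.08. HYP2 no longer passed without replicate 3 (limma adjusted p 0.1) or without replicate 4 (limma adjusted p 0.0775).

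**Figure D4:**
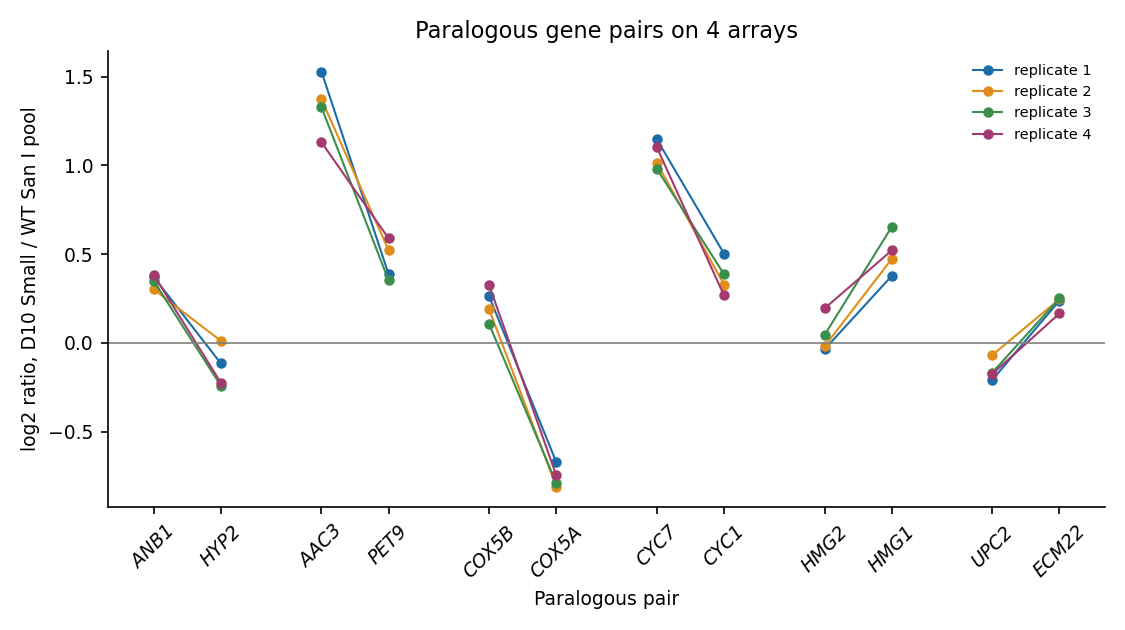
Log2 ratios of both genes of 6 paralogous pairs, joined by a line for each array. The line falls from ANB1, AAC3, COX5B and CYC7 to HYP2, PET9, COX5A and CYC1 on all 4 arrays, and rises from HMG2 to HMG1 and from UPC2 to ECM22.

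The 10 genes lie on 8 chromosome arms, and no arm's median ratio was farther from 0 than 0.21. The right arm of chromosome II, with AAC3, and the left arm of chromosome XI, with HAP4, had medians of 0.21 each, and the other 6 lay between -0.10 for IV right and 0.16 for XVI right. ANB1 shares its upstream region with CYC1, transcribed away from it, and their ratios were 0.35 and 0.37 as processed here. They were less alike otherwise, with 0.70 and 0.38 with no background correction. The authors' table had 0.75 for ANB1 and 0.36 for CYC1, and the net ratio had 1.19 and 0.29. HAP4 stood apart from both its neighbours, KTI12 with 0.06 and SLD2 with -0.07. HAP1, ROX1 and HEM1 had tested neighbours that were higher too. YLR255C, beside HAP1 (0.38), had 0.38. YPR064W and UBA3, beside ROX1 (0.37), had 0.22 and 0.40, and COX20 and RTN1, beside HEM1 (0.29), had 0.26 and 0.41. TAH11, the other neighbour of ANB1, had 0.23. MOT3 lay between NAT4 with 1.09 and TVP18 with -0.34, and UPC2 between TCP1 with -0.55 and AHA1 with 0.57. Next to AAC3 lay RPL19A with -0.14 and YBR085C-A with 0.59 ± 0.24. NRG1, beside HEM13, had 1.12 ± 0.08 against the -0.37 of HEM13, and SDS23, beside OLE1, had 0.75 ± 0.14 against -0.44. On the other sides of HEM13 and OLE1, RPC11 had -0.09 and ERV14 had -0.01. Neighbours were named from the order of genes in the R64 reference table.

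Over 12 alternatives, 8 in processing or test and 4 leaving out a replicate, the direction of 9 of the 10 genes was the same. HAP4 moved least in proportion, from 1.14 with median centring to 1.34 without replicate 4. AAC3 ran from 1.28 without replicate 1 to 1.88 in the scanner's net ratio, and ROX1 from 0.30 to 0.43. HAP1 had its highest value, 0.61, with median centring. HEM13 ran from -0.47 to -0.15 and HEM1 from 0.15 to 0.31, with the value nearest to 0 given by median centring for both. MOT3 was the gene whose sign turned.

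**Figure D5:**
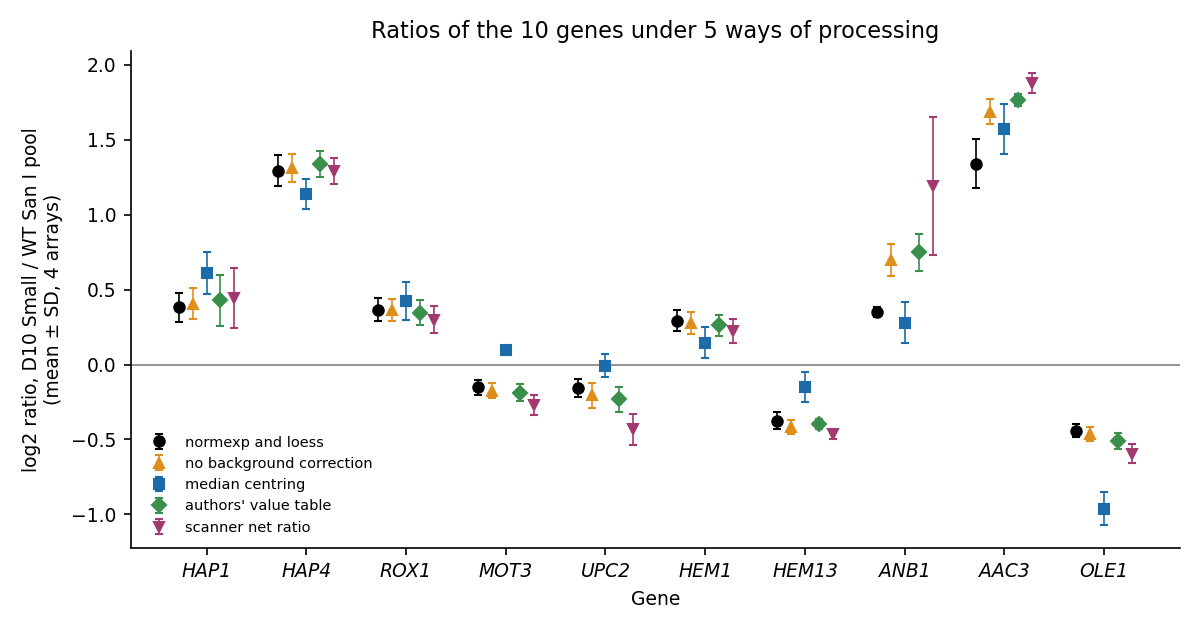
Log2 ratios of the 10 genes (mean ± SD of 4 arrays) under the processing used here (circles) and 4 others. ANB1 reaches 1.19 and AAC3 1.88 in the scanner's net ratio, OLE1 is lowest with median centring at -0.96, and MOT3 is above 0 with median centring alone.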

How the data were processed

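The deposited scanner files hold the spot intensity and local background of each channel on a linear scale, and, per the file headers, a log2 ratio of net signals, for which an unnamed step rescaled the signal of the pool. Labelling started from 250 ng of RNA amplified with a T7 primer, per the labels' protocols. No source used here names the scanner or its software. The authors' value table holds log2 ratios. Their direction and centre were read from the scanner values (r from 0.965 to 0.972 over genes, slopes from 1.17 to 1.26, column medians of 0.00490, -0.00338, 0.00257 and 0.00547), and how it was normalised is not stated.

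Mean intensities were corrected with normexp (offset 50), normalised by loess within arrays with control spots at weight 0, and averaged over 7 spots, leaving out spots beyond 1.42 interquartile ranges from the quartiles. These files hold no background marks. Spots counted as above background at a net signal 2.6 SD over the mean of 153 negative control spots, and probes with at least 4 such spots. Genes above background in either channel on 3 arrays were tested against 0 with limma 3.58.1 in R 4.3.3 (lmFit and eBayes, 4 arrays), which left out 462 genes. The steps from background correction to the limma test against 0 were run on simulated arrays with known changes. Few genes changed in the simulation, while 82.7% of tested genes were called here. The bounds, pair test, minimum fold, Dixon's test and other ways of processing were not simulated. Bounds ("at least") use the bright channel against the lowest signal above background, and are open to dye bias.

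The genes and the 10 lists were chosen with earlier results of these data known. The genes named are the 10, the pairs and, of each other list, up to 4 of the largest ratio past the threshold, and OLI1. ERG2, HEM2, HEM4, HEM15, SPT23, MGA2, HAP2, HAP3, FET4, HMG2, FAA4, UBX2, CYT1, SDH4, DAN1, COX3, ATP8 and the neighbours were named after their values were seen. No sequences were given with these arrays, and none are shown.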

Additional observations from a re-analysis of the deposited data

Results flagged for a closer look

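The ratio of OLE1 on replicate 4, -0.51, lay apart from -0.41, -0.43 and -0.42 on the other arrays. The ratio of ECM22 on replicate 4, 0.17, lay apart from 0.24, 0.25 and 0.25. In both cases the gap to the nearest array, over the whole range, was above Dixon's critical value for 4 values, at 0.864 and 0.856. Of 55 sets of 4 values examined these were the 2 that did so, and chance gives about 5%. Replicate 4 was also the dimmest array, and its part in these values was not tested.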

How the results depend on the processing

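No paired analysis was possible because every array holds 1 replicate against the same pool. Leaving out any 1 replicate left 6 of the 10 genes higher and 4 lower. Median centring left 2 of the 10 lower, 2 heme synthesis genes lower and 4 Upc2 targets higher. With it MOT3 turned to 0.094, ERG25 to -0.11 and PET9 to -0.34. HMG2 had -0.030 in the scanner's net ratio, -0.014 with the median over spots and between -0.00355 and 0.073 with 1 replicate left out. Against a minimum fold of 1.2, chosen after seeing the data, 1425 genes were higher and 1151 lower, in place of 2501 and 2292, and 2 of the 10 were lower. It left 1 heme synthesis gene lower, 3 regulator partners higher and 1 lower, 0 Upc2 targets lower and 5 fatty acid genes lower. ANB1 minus HYP2 was 0.86 with no background correction, 1.36 with median centring, 0.89 in the authors' table and 1.47 in the scanner's net ratio. In the same order AAC3 minus PET9 was 1.24, 1.92, 1.32 and 1.55, and CYC7 minus CYC1 was 0.88, 0.98, 0.97 and 1.11. UPC2 minus ECM22 was -0.56 with no background correction, -0.59 in the authors' table and -0.72 in the net ratio. HMG2 minus HMG1 was -0.046 with median centring, and COX5B minus COX5A was 1.08 in the net ratio. At least 2-fold higher and lower genes numbered 359 and 177, or 538 and 280 with no background correction, 576 and 307 in the authors' table and 723 and 532 in the net ratio. The cause was not tested. Genes near background, ANB1 in the pool foremost, have the least certain size.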
